A study of Mus musculus with 2 samples.

Results

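Of the 1973 miRNA genes counted in the stomach of the mouse embryo, 8 that are linked to blood cells were followed here. Whether their counts came from blood cells was not tested. Mir144, Mir451a and Mir486 are erythroid miRNAs, and Mir223, Mir155, Mir150 and Mir146a are leukocyte miRNAs. The remaining gene, Mir142b, lies on the strand opposite Mir142, a miRNA of blood cells that is not itself among the genes counted. The first 7 were chosen by name, as genes known from these cell types, and with earlier results of these data known. Mir142b was chosen for its counts on the opposite strand, which lie on Mir142, so the strand of its counts is given as a description. All 8 were found among the genes counted, and all 8 were detected, which here means 10 or more counts in both libraries. Given how the genes were chosen, their detection is likewise a description. In all, 361 of the 1973 genes were detected.

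The samples were whole stomachs of B6NCrl mouse embryos at 14.5 days of development, in 1 group of 2 biological replicates with no treatment and no second genotype. The labels describe each sample as a single stomach, collected on its own day, and also give its sex as pooled male and female. Total RNA was selected for fragments under 30 nt and sequenced, and the libraries held 5004548 gene counts in replicate 1 and 4679914 in replicate 2. A gene was measured by its CPM, its counts per 1000000 gene counts, which is a share of the counted miRNA. In whole tissue, fewer cells of a type and less RNA per cell cannot be told apart. Smooth muscle miRNAs (Mir143 and Mir145a) made up 15.5% of gene counts and the epithelial Mir200 family 4.15%, against 0.132% for the 8 genes together.

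MicroRNAs are short RNAs cut from hairpin precursors that guide Argonaute proteins to messenger RNAs, mainly through bases 2 to 8, the seed. Mir144 and Mir451a are cut from a single primary transcript that the factor GATA1 activates in red cell precursors. Mir451a is unusual in that its hairpin skips the enzyme Dicer and is cut by Argonaute 2 instead. Mir486 lies in an intron of Ank1, the gene of an erythrocyte membrane skeleton protein. Mir223 is a miRNA of granulocytes and macrophages, Mir155 and Mir146a are induced during immune activation, and Mir150 marks mature lymphocytes. Mir142 is expressed across the blood cell lineages.

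The mature sequences of the genes on which the results turn are given below from RefSeq (GRCm38.p6), 5′ to 3′, with the seed in capitals. The RefSeq set held a mature sequence for 7 of the 8 genes. The tables count a hairpin as a whole, so its arms were not measured apart. Where a hairpin has more than 1 known product, the arm shown is the one usually regarded as the main product, and for Mir142 both arms are shown.
miR-144-3p: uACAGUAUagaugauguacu
miR-451a: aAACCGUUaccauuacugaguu
miR-223-3p: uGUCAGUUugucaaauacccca
miR-155-5p: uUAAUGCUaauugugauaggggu
miR-146a-5p: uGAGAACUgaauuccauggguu
miR-146b-5p: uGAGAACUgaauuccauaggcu
miR-142a-5p: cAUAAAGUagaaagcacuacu
miR-142a-3p: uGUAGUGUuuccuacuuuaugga
miR-142b: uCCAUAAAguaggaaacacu

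No seed was shared between the RefSeq sequences of these 7 genes, among which Mir150 is compared by its 3p arm alone. Among the 1738 mature sequences of the RefSeq set, the seed GAGAACU of miR-146a-5p occurred also in miR-146b-5p. The other seeds shown for Mir144, Mir451a, Mir223, Mir155, Mir142 and Mir142b occurred in no other entry. miR-146a-5p and miR-146b-5p differ by the substitutions G18A and U21C, counted from the 5′ end with the base of miR-146a first.

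The erythroid genes were led by Mir451a, with Mir144 from the same transcript several times lower and Mir486 close to the lower end of the detected genes. Their total was 756 counts in replicate 1 and 1022 in replicate 2, or 151 and 218 CPM. This was 185 ± 47.6 CPM (SD, n = 2), or 0.0185% of gene counts. Mir451a supplied 81.0% of the erythroid counts in replicate 1 and 89.0% in replicate 2. This order and these shares hold for counted reads, which leave out any reads of Mir486 that map to several places.

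Mir451a (ENSMUSG00000070065.1) lies on chromosome 11 at 78073170 to 78073241 (mm10, plus strand), and no gene is annotated on its own strand there. It had 612 counts in replicate 1 and 910 in replicate 2, or 122 and 194 CPM. Its mean of 158 ± 51.0 CPM ranked 173rd among detected genes. The counting intervals of its libraries, 113 to 132 CPM and 182 to 208 CPM (exact Poisson, 95%), did not overlap, and replicate 2 was 1.59-fold higher. The log2 ratio of replicate 2 over replicate 1 was 0.67, with a 95% interval from 0.52 to 0.82, and passed the exact binomial test after adjustment over all detected genes (adjusted p = 2.34e-18). This is a difference between these libraries, since the design has no second condition. These intervals, like all those given here, cover counting error only.

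The Mir451a hairpin is shown because its product is placed differently from those of the other genes, with the mature miRNA in capitals.
Mir451a hairpin: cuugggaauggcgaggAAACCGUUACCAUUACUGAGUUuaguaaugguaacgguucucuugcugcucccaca
Mir144 hairpin: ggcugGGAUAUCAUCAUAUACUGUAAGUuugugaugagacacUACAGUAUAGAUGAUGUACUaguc
The mature miR-451a covers positions 17 to 38 of the 72 nt hairpin and so crosses its midpoint. None of the mature sequences of the other members found in RefSeq crosses the midpoint of its hairpin. In Mir144 the products lie at positions 6 to 28 and 43 to 62 of 66 nt, on either side of the loop.

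**Figure D1:**
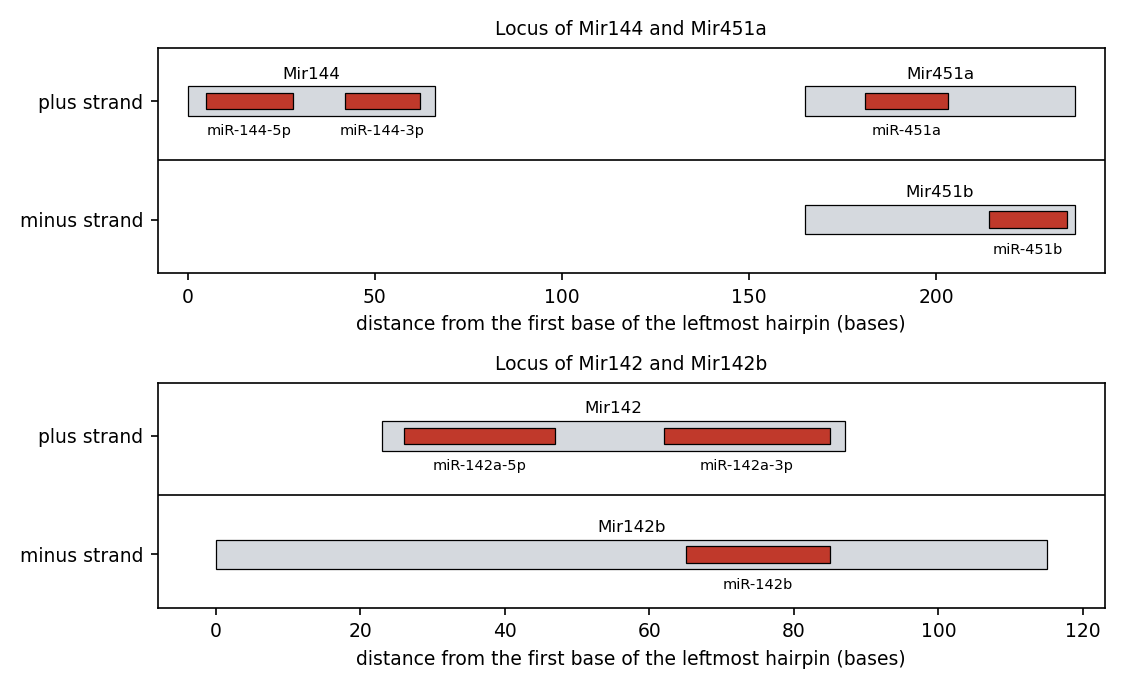
Positions of hairpins (grey) and mature miRNAs (red) on the plus and minus strands, in bases from the first base of the leftmost hairpin, for the locus of Mir144 and Mir451a and that of Mir142 and Mir142b. Mir144 ends 99 bases before Mir451a begins, and miR-142b lies wholly opposite miR-142a-3p.

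Mir144 (ENSMUSG00000065401.1, chromosome 11, 78073005 to 78073070, plus strand) ends 99 bases before Mir451a begins. It had 126 counts in replicate 1 and 88 in replicate 2, or 25.2 and 18.8 CPM, with a mean of 22.0 ± 4.51 CPM. Unlike Mir451a, it was lower in replicate 2. Its log2 ratio of -0.42 (95% interval -0.83 to -0.02) did not pass the exact binomial test after adjustment (adjusted p = 0.0853). The call depended on the scaling, with an adjusted p of 0.0430 under edgeR's TMM factors, 0.0257 under DESeq2's size factors and 0.0437 with totals that leave out the 5 most abundant genes.

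Mir451a therefore exceeded Mir144 by different amounts in the libraries. The ratio of their counts was 4.86 in replicate 1 (95% interval 4.004 to 5.93) and 10.3 in replicate 2 (8.30 to 13.0). These counting intervals do not overlap. On the log2 scale the mean ratio was 2.83 ± 0.77 (SD, n = 2), so Mir451a was the higher gene in both libraries by more than the spread between them. The cause of the different ratios was not tested.

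Mir486 (ENSMUSG00000070084.3) lies on chromosome 8 at 23142555 to 23142682, plus strand, in an intron of Ank1. It had 18 counts in replicate 1 and 24 in replicate 2, or 3.60 and 5.13 CPM, a mean of 4.36 ± 1.08 CPM and the 328th rank of 361. The counting intervals of 2.13 to 5.68 and 3.29 to 7.63 CPM overlap, and the log2 ratio of 0.51 (95% interval -0.43 to 1.48) did not pass the exact binomial test (adjusted p = 0.413). Of the 24 counts of replicate 2, 3 lay on the opposite strand, and with own-strand counts alone the log2 ratio was 0.32. The 128 nt precursor contains a stretch of 22 nt that also occurs in its own reverse complement, the longest such stretch among the 8 genes. A read confined to that stretch fits more than 1 place in the genome, and reads that map to several places were counted for no gene. How much of Mir486 is missing for this reason was not tested.

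The leukocyte genes together were higher than the erythroid genes in both libraries, and Mir223 made up most of their counts. Their total was 3210 counts in replicate 1 and 3176 in replicate 2, or 641 and 679 CPM, a mean of 660.0 ± 26.3 CPM and 0.0660% of gene counts. The leukocyte total was 4.25-fold the erythroid total in replicate 1 and 3.11-fold in replicate 2. The log2 ratio of the erythroid over the leukocyte total was -1.86 ± 0.32 (SD, n = 2), farther from 0 than the spread between the libraries. These ratios hold for the counted reads. Any reads of Mir486 or Mir146a that map to several places are in neither total, and how many there are was not tested.

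Mir223 (ENSMUSG00000076066.1, chromosome X, 96242817 to 96242926, plus strand) overlaps an exon of the non-coding gene F630028O10Rik. It was the highest of the 8 genes by its mean, with 2417 and 2363 counts in replicates 1 and 2. These are 483 and 505 CPM, a mean of 494 ± 15.5 CPM and rank 128 among detected genes. The counting intervals, 464 to 503 and 485 to 526 CPM, overlap. The log2 ratio of 0.06 (95% interval -0.02 to 0.15) did not pass the exact binomial test (adjusted p = 0.229), and it was -0.03 with DESeq2's size factors. Mir223 held 75.3% of the leukocyte counts in replicate 1 and 74.4% in replicate 2.

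Mir146a (ENSMUSG00000065601.1, called Mir146 in GENCODE M21) lies on chromosome 11 at 43374397 to 43374461, minus strand, with no annotated gene on its own strand. It is a feedback inhibitor of NF-kappaB signalling. It had 407 and 376 counts in replicates 1 and 2, or 81.3 and 80.3 CPM, with a mean of 80.8 ± 0.69 CPM. Its log2 ratio of -0.02 (95% interval -0.22 to 0.19) was the closest to 0 among the 8 genes (adjusted p = 0.941, exact binomial test). Mir146b, which carries the same seed, had 2 counts in replicate 1 and 4 in replicate 2 and was not detected. The precursors of Mir146a and Mir146b share a stretch of 21 nt, and a read confined to it fits both loci. Beyond the Mir146 pair, the longest stretch that any of the other 7 genes shared with a precursor elsewhere was 13 nt.

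Mir155 (ENSMUSG00000065397.1, chromosome 16, 84714140 to 84714204, plus strand) lies in an exon of its host transcript Mir155hg. It had 322 counts in replicate 1 and 387 in replicate 2, or 64.3 and 82.7 CPM, with a mean of 73.5 ± 13.0 CPM. Replicate 2 was 1.29-fold higher, a log2 ratio of 0.36 (95% interval 0.14 to 0.58), which passed the test (adjusted p = 0.00269, exact binomial test). The counting intervals of 57.5 to 71.8 and 74.7 to 91.4 CPM did not overlap. Mir150 (ENSMUSG00000065495.1, chromosome 7, 45121757 to 45121821, plus strand) was the lowest leukocyte gene, at 64 and 50 counts, or 12.8 and 10.7 CPM, with a mean of 11.7 ± 1.49 CPM. Its log2 ratio of -0.26 (95% interval -0.82 to 0.30) did not pass the exact binomial test (adjusted p = 0.488). Mir223 exceeded Mir150 37.8-fold in replicate 1 and 47.3-fold in replicate 2.

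**Figure D2:**
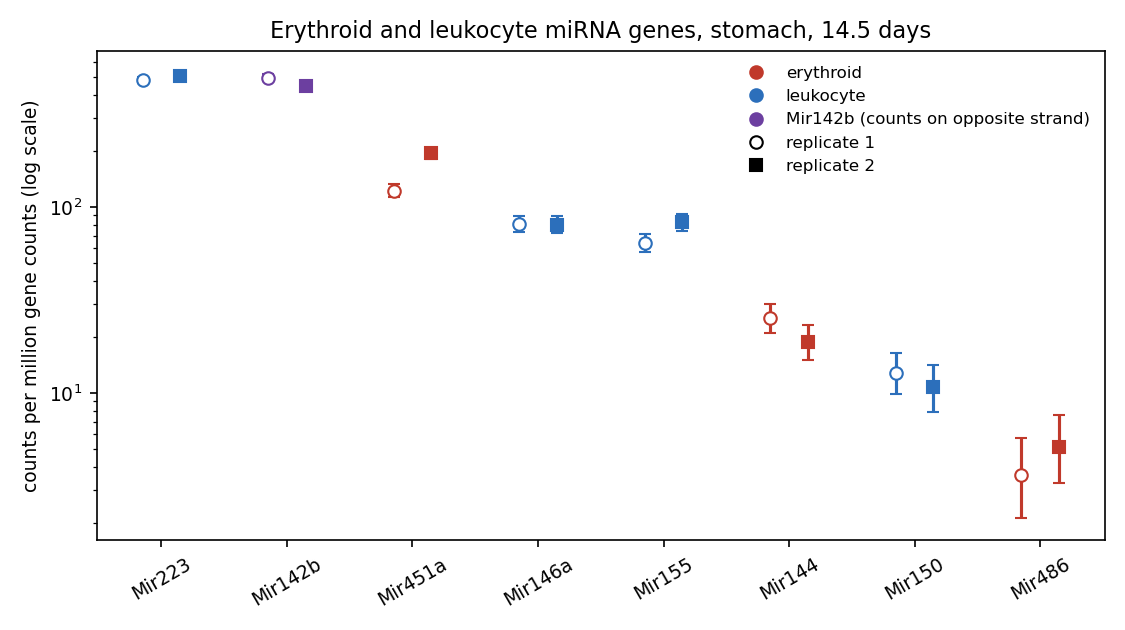
Level of each gene in counts per 1000000 gene counts (log axis) in replicate 1 (open circles) and replicate 2 (filled squares), with exact Poisson 95% intervals that cover counting error only. Mir223 and the Mir142b locus stand highest, between 447 and 505 CPM, and Mir486 lowest in counted reads, at 3.60 and 5.13 CPM.

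The gene entered as Mir142b (ENSMUSG00000065420.2, chromosome 11, 87756841 to 87756955, minus strand) had 2484 counts in replicate 1 and 2091 in replicate 2. All of them lay on the plus strand, opposite the annotated gene, and its own strand held 0 counts in both libraries. On that strand the annotation has Mir142, at 87756864 to 87756927, within an intron of the non-coding Mir142hg. The mature miR-142b is 20 nt long, and all 20 bases lie opposite miR-142a-3p, of which it is the reverse complement. The counts of this gene were read here as counts on Mir142. For miR-142b itself, the limit that 0 counts allow, taken as 3 counts per library, is 0.599 CPM (replicate 1) or 0.641 CPM (replicate 2).

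Taken as Mir142, these counts were 496 and 447 CPM, a mean of 472 ± 35.0 CPM and rank 130. The log2 ratio of -0.15 (95% interval -0.24 to -0.07) passed the test with replicate 2 lower (adjusted p = 0.00125, exact binomial test). Mir223 and Mir142 were close to each other in both libraries. Mir223 stood at 0.973 of Mir142 in replicate 1 (95% interval 0.92 to 1.03) and at 1.13 of it in replicate 2 (1.07 to 1.20), so Mir223 was the higher gene in replicate 2 alone, and the interval of replicate 1 includes a ratio of 1. With Mir142 included, the leukocyte total was 1138 CPM in replicate 1 and 1125 CPM in replicate 2.

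Elsewhere among the 8 genes, opposite-strand counts were few. Mir223, Mir451a, Mir146a, Mir155 and Mir144 had 0 in both libraries. Mir451b, annotated on the strand opposite Mir451a over the same bases, is not among the genes counted, and the 0 opposite-strand counts of Mir451a allow it up to 0.599 and 0.641 CPM. Mir150 had 2 opposite-strand counts in replicate 1 and 0 in replicate 2. Mir486, which has Mir486b (Mir3107 in GENCODE M21) on its other strand, had 0 and 3. Of the 260 genes with 100 or more counts in both libraries, 248 had over 99% of counts on their own strand and 10, Mir142b among them, had over 99% on the opposite strand.

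**Figure D3:**
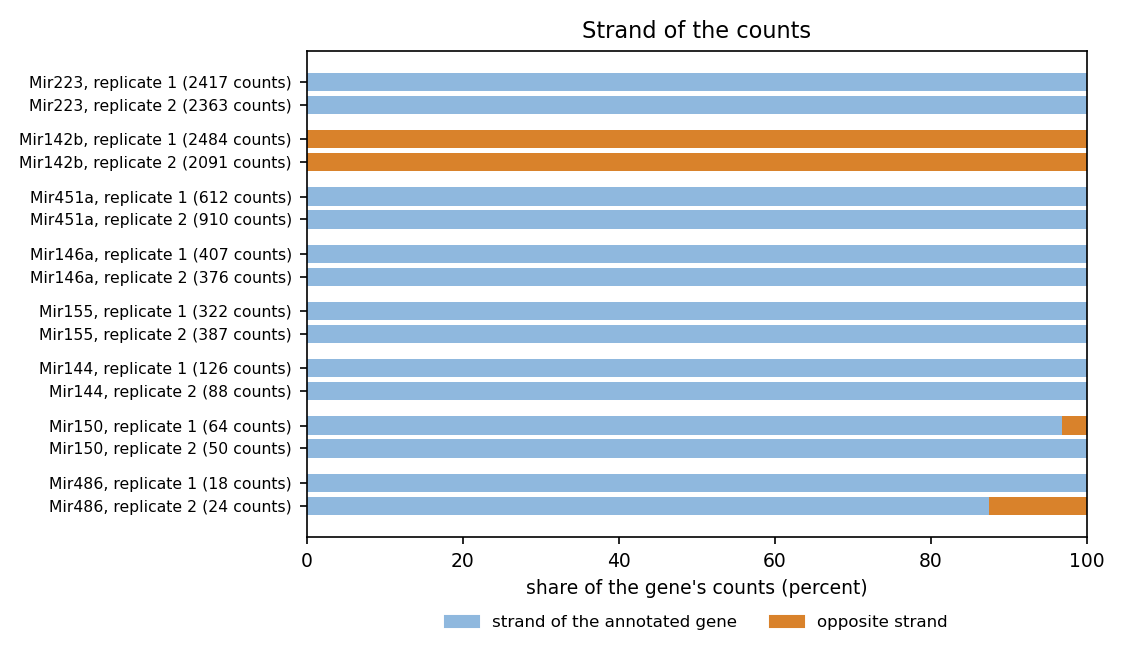
Share of each gene's counts, in percent, on the strand of the annotated gene (blue) and on the opposite strand (orange), per replicate, with the total count beside each bar. Mir142b is at 100% opposite strand in both replicates, and Mir486 in replicate 2 reaches 12.5% from 3 counts.

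In order of mean level the 8 genes ran Mir223, Mir142b (the Mir142 counts), Mir451a, Mir146a, Mir155, Mir144, Mir150 and Mir486. Each read stands for a single small RNA of nearly constant length, so no division by length was made. An error that affects a given miRNA alike in both libraries is not covered by their spread. Mir223 and Mir142b could not be ordered, since their replicate values overlap, and the same held for Mir146a and Mir155. At every other step the lowest replicate of the higher gene exceeded the highest replicate of the lower gene. For Mir144 over Mir150 the counting intervals nevertheless overlap. The largest steps were Mir155 over Mir144, 3.34-fold by the means, Mir142b over Mir451a, 2.98-fold, and Mir150 over Mir486, 2.69-fold. The place of Mir486 and its step below Mir150 hold for counted reads, which leave out any of its reads that map to several places.

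The ranking placed the 8 genes among miRNAs of many origins. Mir370 stood next above Mir223 at 557 ± 19.6 CPM, and Mir199b lay between Mir223 and Mir142b at 482 ± 22.1 CPM, with Mir7b next at 454 ± 64.3 CPM. Mir451a fell between Mirlet7a-1 at 160.2 ± 32.1 CPM and Mir675 at 153 ± 1.11 CPM. Mir146a lay between Mir325 (81.0 ± 0.63 CPM) and Mir33 (80.3 ± 14.4 CPM), and Mir155 between Mir190a (76.4 ± 0.41 CPM) and Mir3102 (71.6 ± 7.78 CPM). Mir144 lay between Mir1955 and Mir582, Mir150 between Mir129-2 and Mir1968, and Mir486 between Mir1197 and Mir3057. The replicate values of each gene and its neighbour overlapped, except for Mir370, whose values of 570.5 and 543 CPM both exceed those of Mir223. With 1 group of 2 libraries, no likeness of pattern between genes was computed.

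Of the 8 genes, 3 differed between the libraries at an adjusted p under 0.05, against 42.1% of the 361 detected genes, so this share is near that of all genes. Mir451a and Mir155 were higher in replicate 2, as were 24.7% of all detected genes, and Mir142b was higher in replicate 1, as were 17.5%. None of the 8 also reached an absolute log2 ratio of 1, which 1.11% of the detected genes did. The median log2 ratio of the 8 genes was 0.02, and that of all detected genes was 0.04, with quartiles of -0.11 and 0.22. Among all detected genes, 89 were higher and 63 lower in replicate 2, and this split became 74 and 94 with TMM factors, 58 and 115 with DESeq2's size factors and 74 and 92 without the 5 most abundant genes. Mir451a, Mir155 and Mir142b had the same direction and passed the test under each of these scalings.

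**Figure D4:**
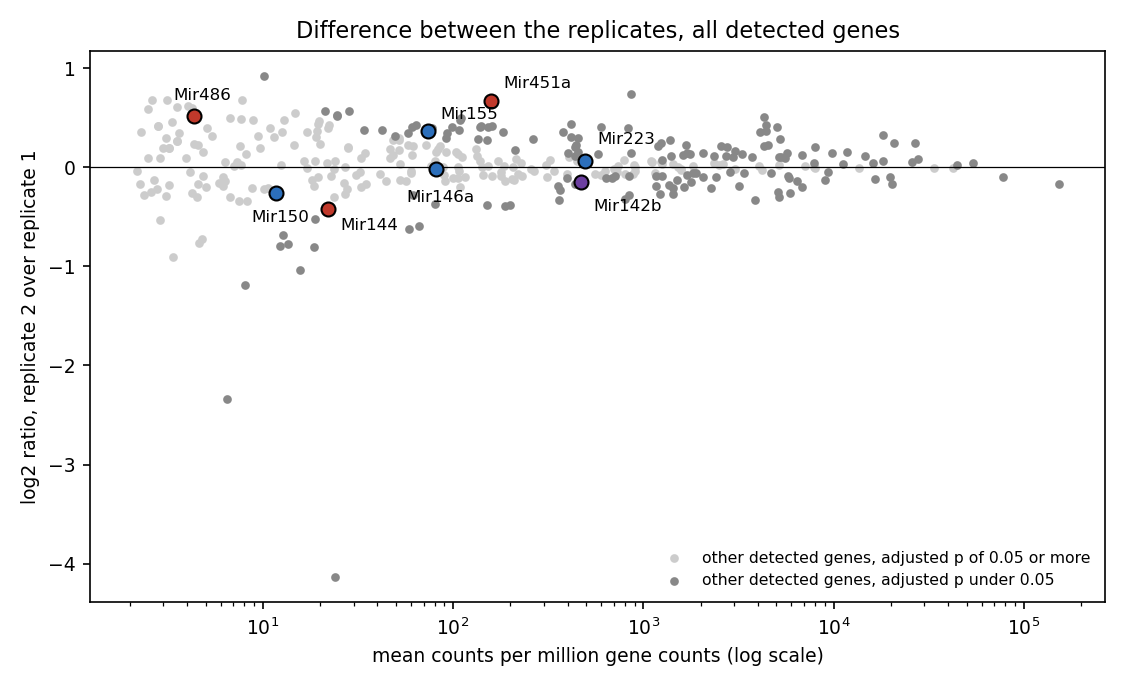
Log2 ratio of replicate 2 over replicate 1 against mean counts per 1000000 (log axis) for all 361 detected genes, with the 8 blood genes in color (erythroid red, leukocyte blue, Mir142b purple). Mir451a, at 0.67, has the highest ratio of the 8 and Mir144, at -0.42, the lowest, and none reaches 1 in either direction.

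Other miRNAs with known roles in blood cells were read from a list of 16, of which 13 were counted and 12 detected. Against the 42.1% of all detected genes, 4 of the 12 differed between the libraries at an adjusted p under 0.05 (exact binomial test), 3 higher in replicate 2 and 1 higher in replicate 1. Their median log2 ratio was 0.01. Many are expressed widely outside blood, and several were far more abundant than the 8 genes. Mir652 had 7926 ± 2.06 CPM, Mir342 in an intron of Evl 4328 ± 1056 CPM, and Mir15a and Mir16-1 of the Dleu2 transcript 2065 ± 148 and 1622 ± 94.4 CPM. Mir342 stood at 3581 CPM in replicate 1 and 5075 CPM in replicate 2, a log2 ratio of 0.50 (adjusted p = 3.83e-273, exact binomial test), and Mir15a (0.15) and Mir16-1 (0.12) also passed.

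The lowest detected genes of this list were Mir511 and Mir147. Mir511, in an intron of the macrophage mannose receptor gene Mrc1, had 29 and 16 counts, or 5.79 and 3.42 CPM. Its log2 ratio was -0.76 (adjusted p = 0.190, exact binomial test). Mir147, which is induced by Toll-like receptor signals in macrophages, had 86 and 47 counts, or 17.2 and 10.04 CPM, and passed the test with a log2 ratio of -0.77 (adjusted p = 0.00828, exact binomial test). Mir132 (307 ± 3.59 CPM), Mir221 (215 ± 9.18 CPM), Mir222 (131 ± 11.6 CPM), Mir181a-1 (1156 ± 34.2 CPM), Mir181a-2 (109 ± 10.5 CPM) and Mir212 (32.4 ± 0.80 CPM) did not pass.

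**Figure D5:**
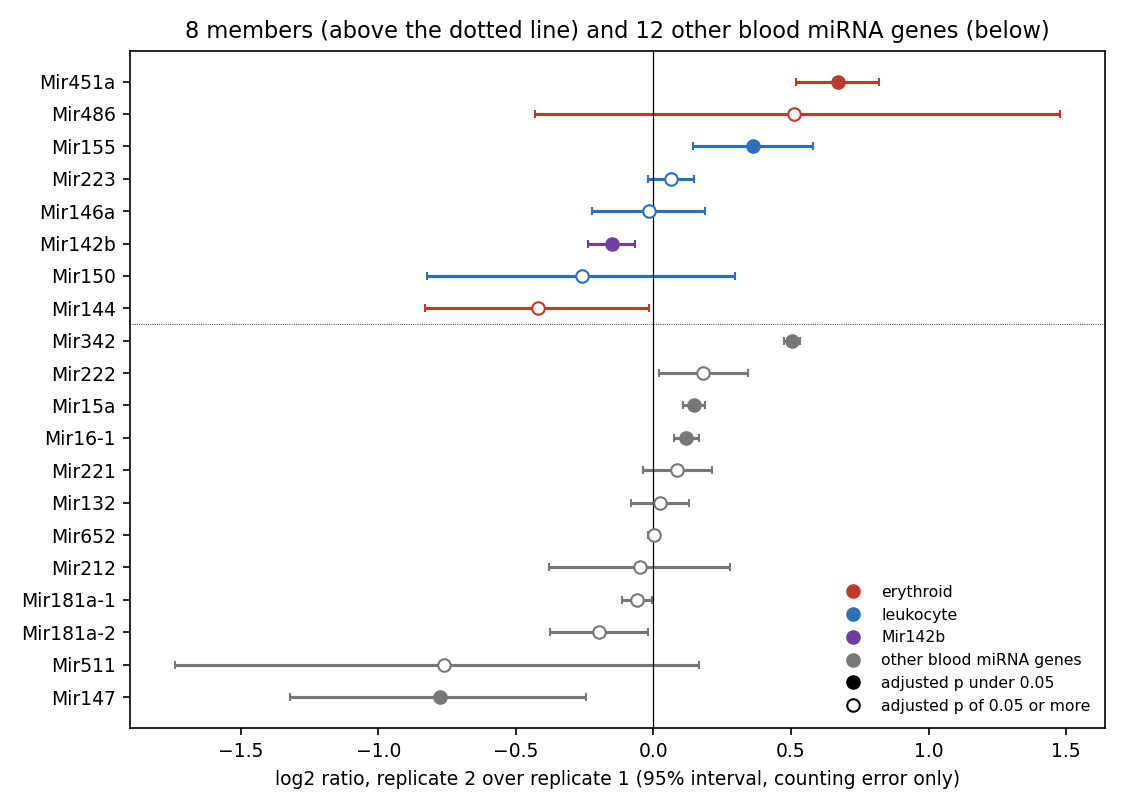
Log2 ratio of replicate 2 over replicate 1 with its 95% interval (counting error only) for the 8 blood genes (above the dotted line) and the 12 other detected blood miRNA genes (below it), filled where the adjusted p was under 0.05. Mir451a at 0.67 lies farthest right and Mir147 at -0.77 farthest left.

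Markers of tissues that carry or make blood were read beside these values. Mir126a, a miRNA of blood vessel endothelium within Egfl7, had 21613 CPM in replicate 1 and 19164 in replicate 2, 44.8-fold and 38.0-fold the level of Mir223. Its log2 ratio was -0.17, lower in replicate 2. Of the 8 genes, 4 were higher in replicate 2 and 4 lower. Mir122, the main miRNA of liver, where the embryo makes blood at this age, had 284 and 308 counts, or 56.7 and 65.8 CPM, with a log2 ratio of 0.21 (adjusted p = 0.147, exact binomial test). Mir451a was 2.15-fold Mir122 in replicate 1 and 2.95-fold in replicate 2. The part of vessel content, of carried-over liver or of circulating blood in the levels of the 8 genes was not tested.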

How the data were processed

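Small RNA of total RNA from 2 stomach samples was sequenced. The authors deposited counts per gene as whole numbers, over both strands and per strand, made from an alignment to mm10 with GENCODE M4, per the text file deposited beside each table. Which aligner and counter were used is not given in the sources used. Unmapped reads (12.5% and 13.5% of all reads in replicates 1 and 2), reads that map to several places (27.8% and 27.4%) and reads outside genes (2.50% and 2.32%) name no gene and were left out of totals.

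Symbols and coordinates came from GENCODE M21 (GRCm38, mm10) by identifier, for 1894 of 1973 genes. CPM used the both-strand counts over total gene counts. Replicates were compared per gene with an exact conditional binomial test (scipy 1.17.1), two-sided, Benjamini-Hochberg adjusted over all detected genes. The test was tried on simulated counts drawn with counting error alone, so its behaviour with spread between biological replicates was not tested. A model such as edgeR's quasi-likelihood test has no contrast with 1 group. TMM factors (edgeR 4.0.16), DESeq2 1.42.0 size factors, other totals, the own-strand counts and other count minimums were alternatives. The p-values set the difference between these libraries against counting error alone. They hold no estimate of the spread between biological replicates.

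The genes named are the 8 members, a list of other blood miRNAs, the neighbours of each member in rank, genes sharing a seed, and markers of endothelium, liver, smooth muscle and epithelium. The members and lists were chosen with earlier results of these data known. Precursors of GENCODE M21 were searched for the longest stretch shared with another locus, on either strand. Sequences printed are from RefSeq.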

Additional observations from a re-analysis of the deposited data

Results flagged for a closer look

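The strand columns held counts where the annotation of Mir142b has none, 2484 in replicate 1 and 2091 in replicate 2. They lie on Mir142. Mir142b was chosen for these counts, so they are given as a description. No group had enough samples to be examined for a single outlying sample, and there was no second group to compare.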

How the results depend on the processing

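The number of genes that differed between the libraries by adjusted p stayed within 1.5 times of 152 under all 7 alternatives, from 143 with own-strand counts to 173 with DESeq2's size factors. With the added minimum of a log2 ratio of 1, it was 4, against 7 with a minimum of 1 count (605 genes tested) and 6 with no minimum (722 tested). Of 55 log2 ratios of the 8 genes under these alternatives, 51 had the direction and the side of the threshold given above. The exceptions were Mir144, whose adjusted p fell under 0.05 with 3 scalings, and Mir223, at -0.026 with DESeq2's size factors. The erythroid over leukocyte log2 ratio was -2.64 with the Mir142b locus added and -2.66 without the most abundant member of each list, against -1.86. It was -1.895 without Mir486, an alternative chosen after seeing the data, and from -2.09 to -1.64 without 1 replicate. Mir486 held 2.38% of the erythroid counts in replicate 1 and 2.35% in replicate 2, so leaving it out could change the ratio little. That alternative does not bear on reads of Mir486 that were counted for no gene. The ratio of Mir451a over Mir144 ran from 2.28 to 3.37 without 1 replicate. Levels depend on the total by construction. Mir223, at 494 CPM, had 281 CPM with all reads as the total and 786 CPM without the 5 most abundant genes, and Mir451a, at 158 CPM, had 90.1 and 251 CPM. Mir142b has a level of 0 with own-strand counts. No paired analysis was possible because there is 1 group. Low counts limit Mir486 and Mir150 most, at 18 to 64 counts a library. Any reads of Mir486 that map to several places are missing besides, in an amount that was not tested.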
